A study of Mus musculus with 12 samples.

Results

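The comparison described here sets 4T1 cells that were irradiated and deprived of serine and glycine (IR -SG) against untreated 4T1 cells in complete medium (Ctr), across all genes of the deposited normalized-count table. It was chosen by its columns, 3 IR -SG samples and 3 Ctr samples, which are 6 of the 12 samples of the series. The other 6 samples are 3 deprived of serine and glycine without radiation (-SG) and 3 irradiated in complete medium (IR), and are used below to say where IR -SG differed from either treatment given alone. 4T1 is a mouse mammary carcinoma cell line, described in the study as p53 null. The irradiated cultures received 5 Gy of X-rays, and every culture was harvested 24 h after treatment. All samples came from a single experiment in biological triplicate on 1 cell line, so the p-values below measure the spread between cultures of that experiment.

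Serine and glycine feed glutathione, purine and thymidylate synthesis through folate-bound carbon units, and cells that lack them activate the kinase GCN2, which phosphorylates the translation factor eIF2 and raises translation of the transcription factor ATF4. ATF4 in turn raises genes for amino acid synthesis and uptake, the integrated stress response. Ionizing radiation breaks DNA, halts the cell cycle at its checkpoints and, through DNA that leaks into the cytosol, can raise interferon-stimulated genes. In cells without p53 the G1 checkpoint is weak and damaged cells tend to accumulate in G2.

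The samples held between 16138712 and 19507587 reads in genes in Ctr (median 19233831) and between 16693453 and 18528060 in IR -SG (median 16742559). Of 20587 genes in the table, 11663 protein-coding genes had at least 10 normalized counts in at least 3 samples and were tested. Summed over 12 listed mammary epithelial markers in the table, the Ctr samples held 64773 to 65273 normalized counts and the IR -SG samples 90397 to 92513, and 11 of the 12 passed the filter. Lymphocyte and endothelial markers summed to at most 1.78 and 15.8 in any Ctr or IR -SG sample. Fibroblast markers summed to 207 to 415 in Ctr and 415 to 468 in IR -SG. Within that sum Pdgfra had 202, 182 and 179 normalized counts in Ctr and 430.5, 379 and 424 in IR -SG, while Col3a1 had 90.8, 5.31 and 125 in Ctr and at most 1.80 in IR -SG. Macrophage markers summed to 89.3 to 166 and 87.5 to 115, with Cd68 at 60.7 to 81.9 in Ctr and 65.9 to 86.2 in IR -SG, and Lyz2 at 45.4, 2.13 and 83.6 in Ctr and at most 0.984 in IR -SG. The part of these markers in the results was not tested, and in bulk RNA fewer cells of a type cannot be told apart from less RNA per cell. The Ctr samples differed in a few genes: 10 tested genes, among them Tchh and Col1a2, were at least 4 times higher in Ctr replicates 1 and 3 than in replicate 2, and 2 of these 10 fell and 2 rose in IR -SG.

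Of the 11663 genes tested, 8126 (69.7%) differed between IR -SG and Ctr at an adjusted p under 0.05 in limma, 4333 higher in IR -SG (37.2%) and 3793 lower (32.5%). A difference of at least 2-fold was less even: 939 genes were higher by that much (8.05%) and 225 lower (1.93%). With so many genes past the threshold, the number of members of a gene group that rose or fell is read below against these shares. The median log2 difference over all genes tested was 0.03 for IR -SG against Ctr, 0.01 for -SG and 0.00 for IR. Against -SG, 2777 genes were higher in IR -SG (23.8%) and 2251 lower (19.3%). Against IR, 3375 were higher (28.9%) and 3279 lower (28.1%). The 12 samples split by treatment throughout: root mean square log2 differences were 0.236 to 0.247 between Ctr replicates, 0.207 to 0.222 between IR -SG replicates and 0.699 to 0.722 between a Ctr and an IR -SG sample.

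**Figure D1:**
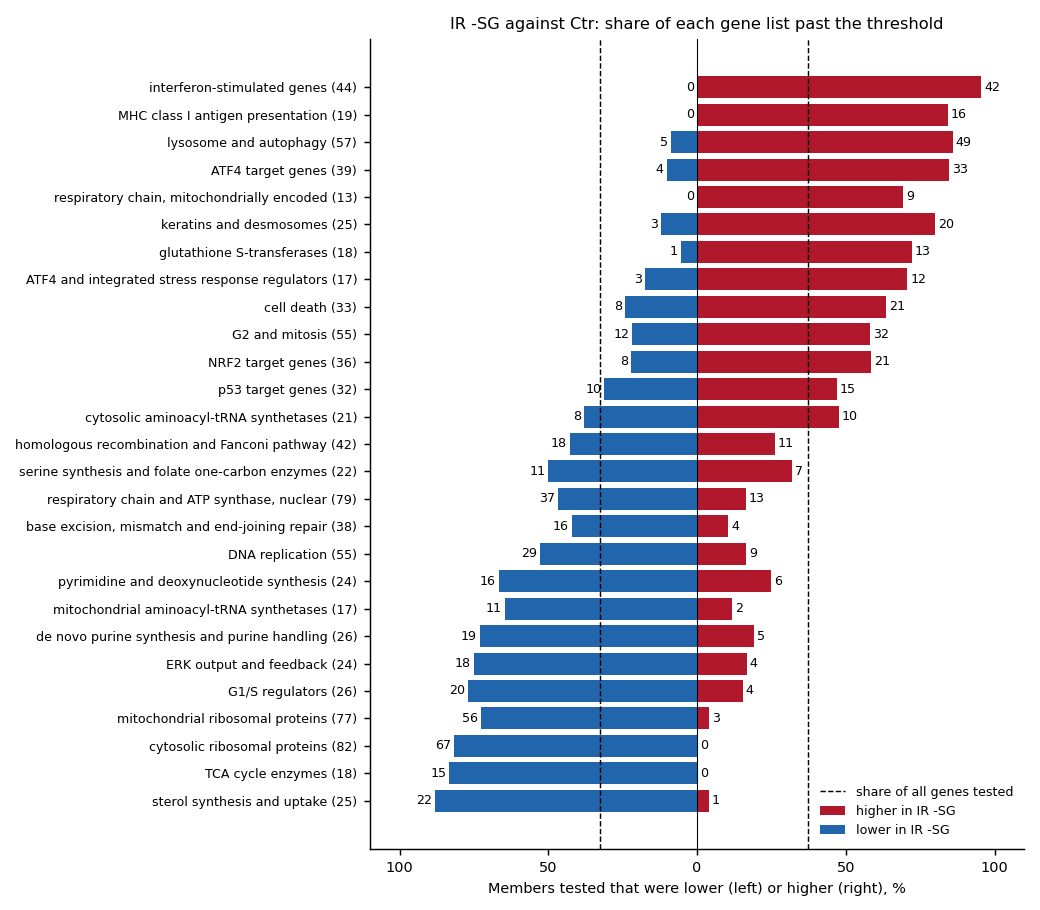
Share of the tested members of 27 gene lists (number tested in parentheses) that were higher (right, red) or lower (left, blue) in IR -SG than in Ctr at an adjusted p under 0.05, with the number of members at each bar. The dashed lines mark the shares among all genes tested, 37.2% higher and 32.5% lower; interferon-stimulated genes reach 42 of 44 higher and sterol synthesis genes 22 of 25 lower.

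Promoters of 7 gene lists were searched for 8 motifs of factors known to act on them, in the 250 bases before the start, on both strands, as RefSeq gives them for GRCm38.p6. Sequence is shown for 3 of the lists, chosen with these shares known. The ATF4 element (TGATGNAAN, an ATF4 site beside a C/EBP site) was present in 10 of the 34 listed ATF4 target genes with a RefSeq promoter, of 39 tested (29.4%), against 3.89% of all 27025 genes with one. The interferon-stimulated response element (TTCNNTTTC) was present in 18 of 36 listed interferon-stimulated genes of 44 tested (50%) against 8.18% of all. The cell cycle homology region (TTTGAA), bound by the MuvB complexes of mitotic genes, was present in 15 of 47 listed G2 and mitosis genes of 55 tested (31.9%) against 18.3% of all. An NF-kB site (GGANNTTCC) was present in 7 of 20 NF-kB genes (35%, against 4.12% of all). E2F sites of 2 forms, TTTCCCGC and TTTGGCGC, were present in 5 and 3 of 45 DNA replication genes (11.1% and 6.67%). The shares for these 2 forms were 1.03% and 0.485% of all genes and 2.07% and 0.955% of the tested genes. The antioxidant response core (TGACNNNGC) was present in 5 of 29 NRF2 targets (17.2%, against 11.5% of all and 14.1% of the tested genes). The sterol element (TCACNCCAC) was present in 1 of 18 sterol genes (5.56%, against 1.22% of all and 1.18% of the tested genes). For the remaining motifs, the share of the tested genes was 2.33% (ATF4), 7.28% (interferon), 12.5% (cell cycle) and 4.63% (NF-kB). Of the members with the motif, 10 of 10 rose for the ATF4 element, 16 of 18 for the interferon element and 8 of 15 for the cell cycle element. With or without the motif, 33 of 39, 42 of 44 and 32 of 55 tested members of these lists rose. For the other elements, 4 rose and 1 fell of 7 (NF-kB), 0 and 3 of 5 and 1 and 2 of 3 (E2F), 1 and 3 of 5 (antioxidant) and 0 and 1 of 1 (sterol). The stretches below are for the ATF4, interferon and cell cycle elements. They are from the members with the motif that rose by the largest log2 difference. Each is printed in the orientation of its gene with the motif, on either strand, in capitals. Each motif was searched for on its own. The 3 with the ATF4 element are Fgf21 (chr7:45615592-45615660, minus strand), Nupr1 (chr7:126625543-126625611, minus) and Pycr1 (chr11:120643813-120643881, minus). The 2 with the interferon element are Oas3 (chr5:120777696-120777764, minus) and Gbp2 (chr3:142620575-142620643, plus), and the 2 with the cell cycle element are Prc1 (chr7:80294416-80294475, plus) and Ube2c (chr2:164769870-164769928, plus). A match describes these letters only, and binding was not measured.
Fgf21: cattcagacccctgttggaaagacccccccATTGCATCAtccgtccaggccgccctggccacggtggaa
Nupr1: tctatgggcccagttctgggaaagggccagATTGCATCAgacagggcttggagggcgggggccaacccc
Pycr1: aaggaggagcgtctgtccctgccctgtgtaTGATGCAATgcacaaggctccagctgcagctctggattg
Oas3: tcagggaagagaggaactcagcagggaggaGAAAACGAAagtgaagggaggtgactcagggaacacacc
Gbp2: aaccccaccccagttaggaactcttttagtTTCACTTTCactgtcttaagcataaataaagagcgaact
Prc1: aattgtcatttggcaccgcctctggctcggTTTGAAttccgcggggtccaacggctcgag
Ube2c: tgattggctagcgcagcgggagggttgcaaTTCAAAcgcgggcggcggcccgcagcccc

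ATF4 target genes were higher in IR -SG than in Ctr as a group: of 39 tested, 33 rose, 4 fell and 2 did not pass the test, with a median log2 difference of 0.74. Aldh1l2, the mitochondrial 10-formyltetrahydrofolate dehydrogenase (chromosome 10, 83487450 to 83534140, GRCm38), had 33.8, 34.0 and 27.3 normalized counts in the Ctr samples and 462, 461 and 449.5 in the IR -SG samples, which do not overlap. Its log2 difference was 3.82 ± 0.10 (SE, n = 3 against 3, limma adjusted p = 2.13e-14), and its 32.0 ± 1.58 counts in IR were at the Ctr level of 31.7 ± 3.84 (SD, n = 3). Niban1, a stress-induced regulator of eIF2 phosphorylation, went from 216 ± 26.0 to 2797 ± 55.6 normalized counts, a log2 difference of 3.69. Slc6a9, the glycine transporter GlyT1, went from 259 ± 9.61 to 1466 ± 44.8, a log2 difference of 2.50, and Pycr1, which makes proline, from 215 ± 12.7 to 710.1 ± 48.9, a log2 difference of 1.72. Fgf21, a secreted stress hormone, was near the lower limit of counting with 2.59 ± 1.68 in Ctr and 26.6 ± 5.49 in IR -SG. The members that fell were led by the glutamine carrier Slc1a5 (log2 difference -0.57), with Shmt2 (-0.16) and the amino acid carrier Slc38a2 (-0.15).

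Most ATF4 targets stood lower in IR -SG than after starvation alone. Against -SG, 29 of the 39 were lower and 2 higher, against 19.3% and 23.8% of all genes, and against IR, 37 were higher and 1 lower. Set against the same Ctr samples, the list's median of 0.74 compares with 1.07 in -SG and -0.24 in IR. The pattern was clear in Trib3, a pseudokinase of this response, with 531 ± 34.9 normalized counts in Ctr, 2197 ± 120.0 in -SG and 431 ± 23.4 in IR, set against 1326 ± 40.6 in IR -SG (log2 difference from -SG -0.73, adjusted p = 1.6e-07, limma). Aldh1l2 and Nupr1 were the exceptions, higher in IR -SG than in -SG by 0.32 and 0.41 on the log2 scale.

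Among 17 regulators of the response, 12 rose and 3 fell, with a median of 0.66. Atf5, an ATF4-induced transcription factor, had 567, 596 and 589 normalized counts in Ctr and 4214, 4098 and 3717 in IR -SG, a log2 difference of 2.78 ± 0.06 (SE). Atf4 itself moved the other way. Its 5946, 6259 and 6145 normalized counts in Ctr and 5426, 5398 and 5228 in IR -SG did not overlap, and the log2 difference was -0.19 ± 0.04 (limma adjusted p = 0.000462). Atf4 was at 8037 ± 498 in -SG and at 4472 ± 81.3 in IR, so the IR -SG level lay between those of the treatments given alone. Nupr1, a stress-induced chromatin protein, rose by 1.85 on the log2 scale, and Ddit3, the transcription factor CHOP, by 1.32. Among the eIF2 kinases, Eif2ak3 (PERK) rose by 1.12 and Eif2ak2 (PKR) by 0.66, Eif2ak4 (GCN2) fell by 0.34, and Eif2ak1 (HRI), with a log2 difference of 0.05, did not pass the test (adjusted p = 0.415, limma).

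The enzymes of serine synthesis rose, while several that handle folate-bound carbon in the cytosol fell. Psph, which releases serine in the last step of its synthesis, went from 1478 ± 53.7 normalized counts in Ctr to 3270 ± 10.9 in IR -SG (log2 difference 1.15). Psat1 rose by 0.39 and Phgdh, the first enzyme of the pathway, by 0.18. Shmt1, which converts serine to glycine in the cytosol (chromosome 11, 60788104 to 60811718), had 1962, 2005 and 2056 normalized counts in Ctr and 855, 862 and 846 in IR -SG, with no overlap and a log2 difference of -1.23 ± 0.05 (SE, limma adjusted p = 1.05e-12). Its mitochondrial counterpart Shmt2 fell by 0.16, and Mthfd2, the mitochondrial methylenetetrahydrofolate dehydrogenase, was at 3424 ± 52.2 in Ctr and 3375 ± 88.3 in IR -SG (adjusted p = 0.631). Mthfd1, its cytosolic counterpart, fell by 0.90 and Tyms, thymidylate synthase, by 0.85. Over the 22 members tested, 7 rose and 11 fell, and 8 of the 22 were lower in IR -SG than after each treatment alone, as were 9.24% of all genes.

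Nucleotide synthesis genes were mostly lower. Of 24 genes of pyrimidine and deoxynucleotide synthesis, 16 fell and 6 rose (median log2 difference -0.58). In 11 of the 24 the IR -SG level was lower than in both -SG and IR, beside 9.24% of all genes. Cad, which carries out the first steps of pyrimidine synthesis, went from 12011 ± 53.8 normalized counts in Ctr to 5776 ± 176 in IR -SG (log2 difference -1.06), with 7228 ± 148 in -SG and 9338 ± 332 in IR. Upp1, a uridine phosphorylase, which cleaves uridine rather than making it, fell by 1.73. The deoxycytidylate deaminase Dctd fell by 1.17 and the thymidine kinase Tk1 by 1.01. Of 26 purine genes, 19 fell and 5 rose (median -0.42), among them Impdh1 (-1.13) and Gart (-0.95), which act in guanylate and inosinate synthesis. Xdh, the purine-degrading xanthine dehydrogenase, had the largest rise of these 26, with 89.2 ± 9.67 normalized counts in Ctr and 642 ± 6.17 in IR -SG. Its log2 difference was 2.84, and its levels in -SG (278 ± 10.5) and IR (358 ± 13) were both lower than in IR -SG.

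**Figure D2:**
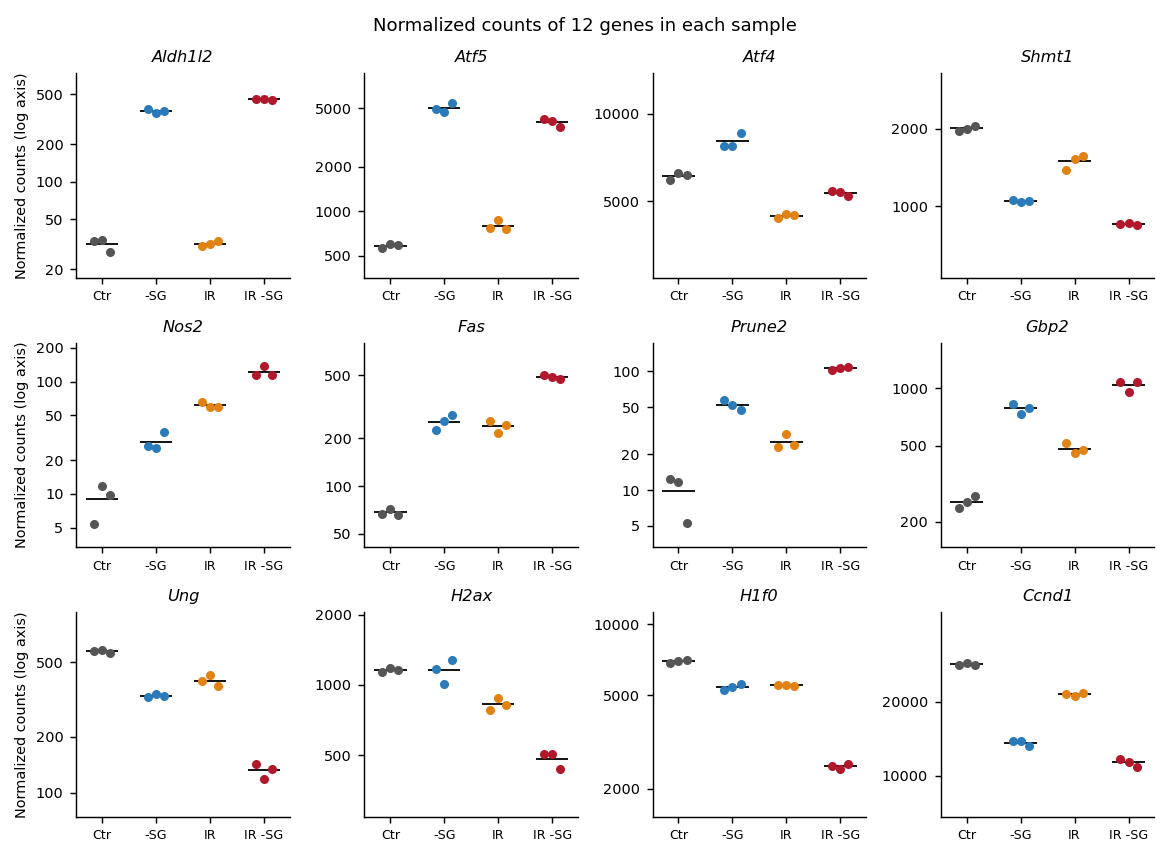
Normalized counts of 12 genes in each of the 12 samples (log axis; points are samples, lines are group means of 3). Aldh1l2 and Atf5 are high in both groups without serine and glycine, Nos2, Fas and Prune2 are highest in IR -SG (group means 123, 488 and 107), and Ung and H1f0 are lowest there (132 and 2492).

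Cell cycle genes parted by phase. Of 26 regulators of the G1/S transition, 20 fell and 4 rose (median -0.36), whereas of 55 genes of G2 and mitosis 32 rose and 12 fell (median 0.13). Ccnd1, the D-type cyclin of G1 (chromosome 7, 144929931 to 144939925), had 28257, 28851 and 28268 normalized counts in Ctr and 11737, 11329 and 10902 in IR -SG, with a log2 difference of -1.33 ± 0.03 (SE, limma adjusted p = 1e-14). E2f8 fell by 0.99, Ccne2, an E-type cyclin, by 0.92 and Skp2, which marks CDK inhibitors for degradation, by 0.66. Rbl2, a pocket protein that represses E2F targets in resting cells, and Tfdp2, a dimer partner of E2F factors, rose by 0.91 and 0.92. Among 5 CDK inhibitors Cdkn1b rose by 0.30 and Cdkn2c by 0.29. Cdkn1a, encoding p21, was at 363 ± 7.37 in Ctr and 327 ± 7.48 in IR -SG, a log2 difference of -0.15 (limma adjusted p = 0.0395) that no longer passed the threshold when any Ctr sample or IR -SG replicate 4 or 5 was left out (adjusted p = 0.0505 to 0.101), nor with TMM or same-total scaling or DESeq2.

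Mitotic genes were often higher in IR -SG than after either treatment alone. Their median log2 difference from Ctr was 0.13 in IR -SG, beside -0.04 and -0.05 in -SG and IR, and 25 of the 55 were higher in IR -SG than in both -SG and IR while none was lower than both. Over all genes those shares were 10.0% and 9.24%. Nusap1, a spindle microtubule protein, had 1532, 1575 and 1575 normalized counts in Ctr and 2836, 2900 and 2974 in IR -SG (log2 difference 0.89 ± 0.04), with 2210 ± 99.5 in -SG and 1840 ± 36.3 in IR. Cenpf, a kinetochore protein, had 4923, 4680 and 4358 in Ctr, 6011, 5706 and 4974 in -SG and 4551, 3984 and 4283 in IR, set against 7076, 7487 and 6981 in IR -SG. The IR -SG samples of both genes lay above every other sample. Prc1, a midzone spindle protein whose promoter stretch is printed above, went from 3708 ± 135 to 5478 ± 125 (log2 difference 0.56), against 4066 ± 93.9 in -SG and 3878 ± 55.3 in IR. The phosphatases Cdc25c and Cdc25b, which activate CDK1 at entry into mitosis, rose by 0.62 and 0.46. The largest falls were those of Mybl2 (-0.52), a transcription factor of the late cell cycle, Spc25 (-0.39), a kinetochore subunit, and Plk4 (-0.38), which starts centriole duplication.

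**Figure D3:**
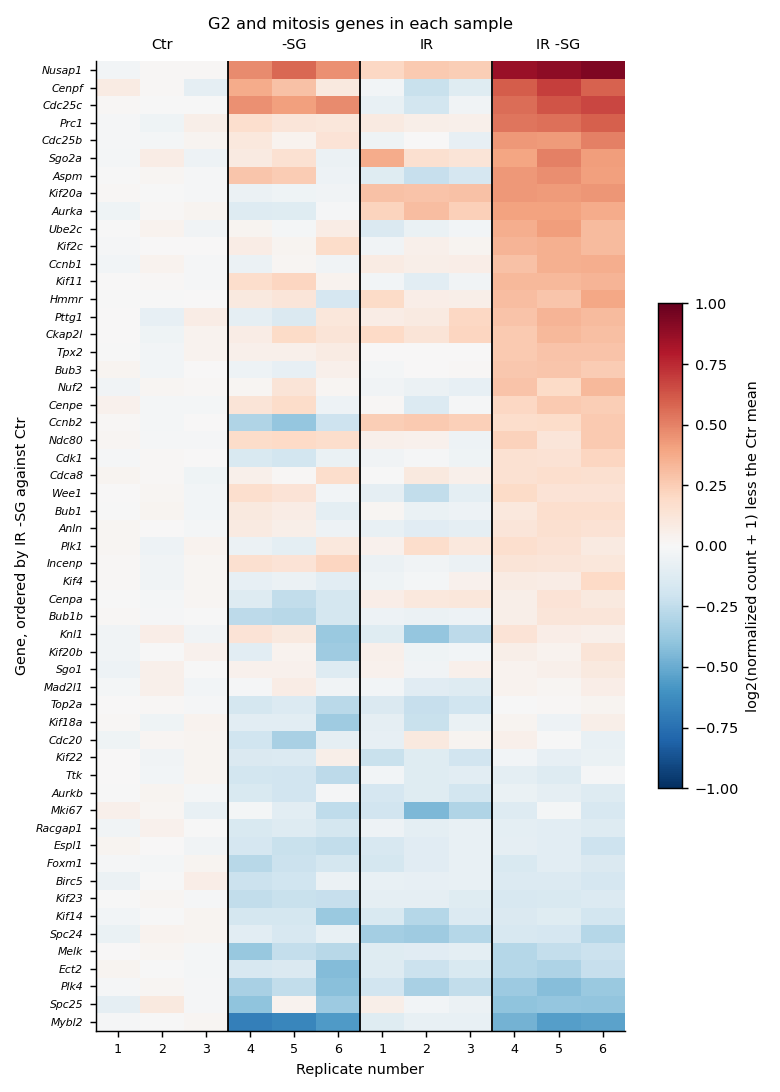
Heat map of 55 G2 and mitosis genes in the 12 samples, as log2(normalized count + 1) less the mean of the Ctr samples. The columns of IR -SG are the reddest: 32 of the 55 genes rose and 25 were higher there than after each treatment alone.

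Among replication and repair genes more fell than rose, beside 32.5% lower and 37.2% higher among all genes. Of 55 DNA replication genes 29 fell and 9 rose (median -0.11), led by Dna2, a helicase and nuclease, at 506 ± 38.2 normalized counts in Ctr and 138 ± 14.6 in IR -SG (log2 difference -1.87). Cdc7, the kinase that fires origins, fell by 0.93 and the polymerase delta subunit Pold2 by 0.86, while Gins4, Gmnn and Orc1 rose by 0.37, 0.27 and 0.25. Of 38 genes of base excision, mismatch and end-joining repair, 16 fell and 4 rose. Ung, the uracil glycosylase (chromosome 5, 114130386 to 114139323), had 573, 579 and 564 normalized counts in Ctr, 327, 337 and 328 in -SG and 395, 429 and 372 in IR, set against 142, 119 and 135 in IR -SG. Its log2 difference from Ctr was -2.11 ± 0.07 (SE, limma adjusted p = 5.03e-13), and the IR -SG samples did not overlap with those of any other group. Of 42 homologous recombination and Fanconi genes 18 fell and 11 rose. Fancg, of the Fanconi core complex, was the largest rise, from 156 ± 5.06 to 359 ± 22.3 (log2 difference 1.20).

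The 2 linker histone genes tested, of 5 in the table, and H2ax were lower in IR -SG than in any other group. H1f0, the linker histone of slowly dividing cells (chromosome 15, 79028450 to 79030504), had 6858, 7014 and 7036 normalized counts in Ctr and 2495, 2438 and 2542 in IR -SG, a log2 difference of -1.48 ± 0.03 (SE, limma adjusted p = 1.94e-15), with 5414 ± 160.3 in -SG and 5510 ± 20 in IR. H1f2, a replication-dependent linker histone, was at 75.0 ± 8.22 in Ctr, 162 ± 3.01 in IR and 34.3 ± 4.03 in IR -SG. H2ax, whose protein is phosphorylated at DNA breaks, had 1130, 1177 and 1160 in Ctr and 506, 507 and 435 in IR -SG. Its -SG level of 1152 ± 136 was that of Ctr, and its IR level was 827 ± 46.4. Replication-dependent core histones were sparse, since 4 of the 30 in the table passed the filter, 2 of which fell: H4c9 (-0.69) and H2bc21 (-0.57). Both calls were lost when IR -SG replicate 4 was left out, and 1 of them without Ctr replicate 2 or IR -SG replicate 5.

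Listed p53 targets had no common direction: of 32 tested, 15 rose and 10 fell, with a median of 0.12. Among all genes 37.2% were higher and 32.5% lower. Fas, a death receptor (chromosome 19, 34290666 to 34327772), had 66.7, 72.3 and 66.0 normalized counts in Ctr and 499.7, 488 and 476 in IR -SG. Its log2 difference was 2.82 ± 0.09 (SE, limma adjusted p = 1.76e-13), and both -SG (253 ± 27.1) and IR (238 ± 21.2) lay between. Trp53inp1 rose by 2.50 and Gadd45a, a growth arrest gene that ATF4 also raises, by 2.33. Aen, a nuclease of p53-dependent apoptosis, and Fdxr, a mitochondrial reductase, fell by 0.79 and 0.70. Trp53 transcripts were read at 899 ± 25.9 in Ctr and 858 ± 16.2 in IR -SG and did not pass the test (adjusted p = 0.224).

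Of 33 cell death genes 21 rose and 8 fell, with a median of 0.21. Bmf, a pro-apoptotic BH3-only protein, went from 35.1 ± 3.76 normalized counts to 189 ± 20.4, a log2 difference of 2.40, and Zbp1, a sensor of Z-form nucleic acid that triggers necroptosis, from 19.7 ± 6.52 to 117 ± 15.8. Casp1 and Gsdmd, of the pyroptosis pathway, rose by 2.08 and 1.12. Bcl2, which restrains apoptosis, fell by 0.68.

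Interferon-stimulated genes were higher in IR -SG than in Ctr nearly throughout: 42 of 44 rose and none fell, with a median log2 difference of 1.12. Leaving out -SG replicate 6 called 2 of the 44 lower, and leaving out -SG replicate 4, Ctr replicate 3 or IR -SG replicate 4 called 1. The same Ctr samples gave a median of 0.44 for -SG and 1.01 for IR. Gbp2, a guanylate-binding GTPase (chromosome 3, 142620602 to 142638008), had 235, 255 and 273 normalized counts in Ctr and 1085, 962 and 1077 in IR -SG, a log2 difference of 2.03 ± 0.07 (SE, limma adjusted p = 5.35e-13). Oas3, an oligoadenylate synthetase, had 40.9, 41.5 and 24.6 in Ctr and 182, 181 and 168 in IR -SG, a log2 difference of 2.32. Ifi44 rose by 2.67 and Irf7, the factor that amplifies type I interferon, by 2.39, both from under 25 normalized counts in Ctr. Against -SG, 41 of the 44 were higher and none lower, where 23.8% of all genes were higher. Against IR, 15 were higher and 11 lower, near the shares of all genes (28.9% and 28.1%). Leaving out genes with a mean under 100 kept 30 members, of which 29 rose.

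Genes of class I antigen presentation were mostly higher. Of 19 MHC class I genes 16 rose and none fell (median 0.62), with Tapbpl, a peptide editor, at 303 ± 6.59 normalized counts in Ctr and 1074 ± 57.7 in IR -SG (log2 difference 1.82). Psmb9, an immunoproteasome subunit, rose by 1.62 and H2-T23, a non-classical class I gene, by 1.56. Of 19 other surface genes that immune cells recognise, 10 rose, 2 fell and 7 did not pass the test (median 0.25), with 6 to 12 higher under the alternatives. Cd274, encoding PD-L1, was low, at 26.3 ± 3.86 and 47.4 ± 2.10. Of 22 genes that sense nucleic acid in the cytosol, 14 rose and 4 fell, and of 24 NF-kB subunits and feedback genes 16 rose and 4 fell.

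Chemokines and cytokines were less uniform, with 12 of 26 higher and 8 lower, not far from the 37.2% and 32.5% of all genes. Their median log2 difference was 0.22 in IR -SG, -0.13 in -SG and 1.17 in IR, and with quantile normalization the IR -SG median was -0.15. Cx3cl1, a membrane-bound chemokine, went from 792 ± 23.4 normalized counts in Ctr to 1887 ± 82.1 in IR -SG, with 2308 ± 73.0 in IR. Csf3, encoding G-CSF, which 4T1 cells are known to secrete, had 545, 541 and 568 in Ctr and 277, 269.6 and 230.2 in IR -SG (log2 difference -1.09). Against IR, 22 of the 26 were lower in IR -SG and 3 higher, beside 28.1% and 28.9% of all genes.

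Nos2 and Arg1, the enzymes that compete for arginine, both rose from low levels. Nos2, inducible nitric oxide synthase (chromosome 11, 78920787 to 78960254), had 5.34, 11.7 and 9.68 normalized counts in Ctr and 114, 139 and 115 in IR -SG, a log2 difference of 3.70 ± 0.22 (SE, limma adjusted p = 3e-10). Its IR level was 61.9 ± 3.69 and its -SG level 29.2 ± 5.24. Arg1 went from 14.4 ± 3.93 to 87.0 ± 17.4. The polyamine enzymes Odc1 and Srm fell by 1.04 and 1.13, Odc1 from 9278 ± 287 to 4502 ± 172. Macrophages also express both genes. Of the macrophage markers, Csf1r had 2.67, 5.31 and 6.16 normalized counts in Ctr and 14.4, 15.9 and 10.8 in IR -SG. Aif1 was at 0 in Ctr and at 2.70 to 3.93 in IR -SG, and Ptprc was at most 2.67 in either group. Lyz2 went the other way, with 45.4, 2.13 and 83.6 in Ctr and at most 0.984 in IR -SG. Tyrobp had 1.78, 1.06 and 6.16 in Ctr and 0 in IR -SG. Cd68 (60.7 to 81.9 and 65.9 to 86.2) and Mrc1 (7.04 to 9.79 and 3.93 to 8.92) overlapped between the groups. The macrophage markers summed to 89.3 to 166 in Ctr and 87.5 to 115 in IR -SG. The part of such cells in these values was not tested.

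The mitochondrial genes split by genome. Of the 18 TCA cycle enzymes 15 fell, none rose and 3 did not pass the test, with a median of -0.20. The same list had a median of -0.17 in -SG and -0.06 in IR. Fh1, fumarase (chromosome 1, 175600374 to 175625635), had 3049, 2989 and 3040 normalized counts in Ctr and 2100, 2131 and 2054 in IR -SG, a log2 difference of -0.53 ± 0.05 (SE, limma adjusted p = 1.61e-07). Idh3a and Suclg2, the catalytic subunit of NAD-dependent isocitrate dehydrogenase and a succinyl-CoA ligase subunit, each had a log2 difference of -0.52. The other falls were smaller, from -0.34 for Idh2 and -0.31 for Mdh2 to -0.09 for Sucla2. Under same-total scaling or quantile normalization 2 of the 18 were called higher, and without -SG replicate 6, 1.

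Nuclear genes of the respiratory chain and ATP synthase were lower in 37 of 79 and higher in 13 (median -0.15), the latter 8 without Ctr replicate 1 and 7 without IR -SG replicate 4. Atp5b, the catalytic beta subunit, went from 37775 ± 269 normalized counts to 25219 ± 464, and Cyc1, cytochrome c1, from 3177 ± 60.1 to 2232 ± 96.6. Mitochondrial ribosomal proteins fell in 56 of 77 and rose in 3 (median -0.30), or in 5 without -SG replicate 6 and 1 without IR -SG replicate 6, and mitochondrial aminoacyl-tRNA synthetases fell in 11 of 17 and rose in at most 2 (median -0.38). The cytosolic ribosomal proteins fell in 67 of 82 and rose in none (median -0.31). The 13 genes encoded by the mitochondrial genome went the other way, with 9 higher and none lower (median 0.62). Each treatment alone also raised them, with medians of 0.60 in -SG and 0.49 in IR. CYTB, cytochrome b, had 12386, 11580 and 12607 normalized counts in Ctr and 21173, 26242 and 26408 in IR -SG, a log2 difference of 1.01 ± 0.08, and ND4 and COX1 rose by 0.95 and 0.91.

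**Figure D4:**
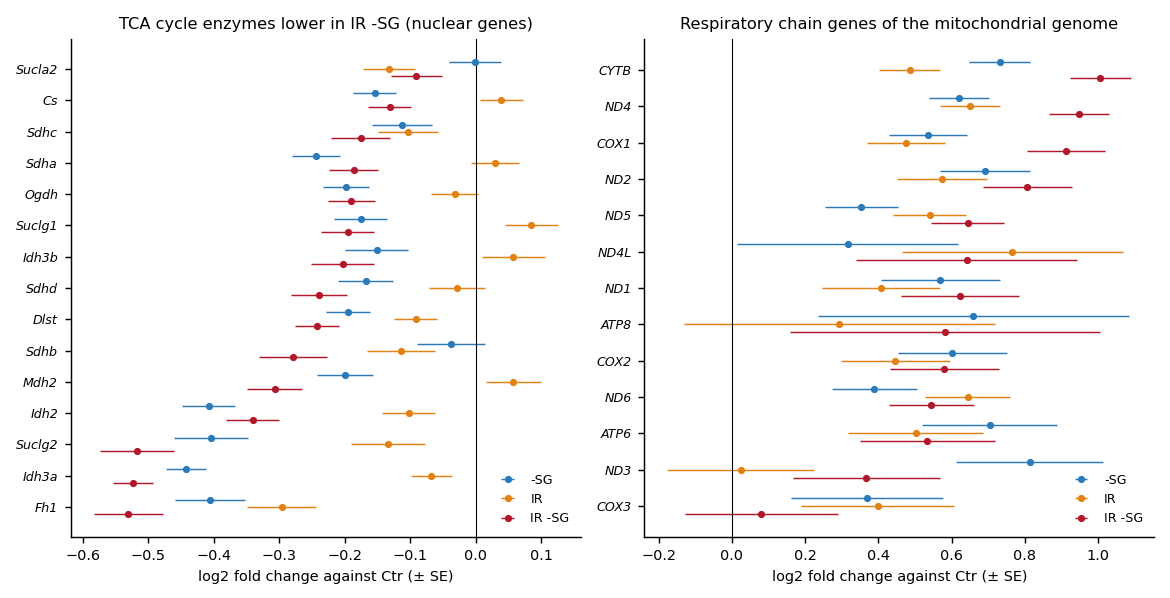
Log2 difference from Ctr (± SE) of the 15 TCA cycle enzymes that fell in IR -SG, of 18 tested, and all 13 mitochondrially encoded genes after -SG, IR and IR -SG. In IR -SG these TCA enzymes lie from -0.53 to -0.09 and the mitochondrially encoded genes from 0.08 to 1.01.

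The largest single rise among genes with at least 100 normalized counts was that of a respiratory chain gene outside this trend. Cox6a2, the muscle and heart isoform of a cytochrome c oxidase subunit, had 0, 1.06 and 0 normalized counts in Ctr, 125, 151 and 171 in -SG and 2.10, 2.81 and 1.08 in IR, set against 102, 107 and 110.2 in IR -SG. Only the groups without serine and glycine carried more than a few reads. Its fitted log2 difference of 6.40 depends on the pseudocount of 1 and is no measured fold. Of 13 genes of pyruvate entry into mitochondria 5 rose and 3 fell, beside 37.2% and 32.5% of all genes. Their median was 0.03, or -0.02 where genes with a mean under 100 were left out. The log2 differences ran from -0.96 to 2.48. Pdk2, a kinase that shuts pyruvate dehydrogenase, went from 17.1 ± 1.96 to 99.3 ± 7.64. Pdp2, the phosphatase that reopens it, fell from 790.3 ± 35.6 to 405 ± 6.03.

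Sterol and fatty acid synthesis genes were mostly lower. Of 25 sterol genes 22 fell and 1, Ebp (0.25), rose, with a median of -0.73. Lss, lanosterol synthase (chromosome 10, 76531588 to 76557138), had 2447, 2371 and 2420 normalized counts in Ctr and 786, 726 and 781 in IR -SG, a log2 difference of -1.66 ± 0.04 (SE, limma adjusted p = 2.75e-14). Insig1, the sterol-sensing partner of SCAP, fell by 1.63, Fdps by 1.25 and Cyp51 by 1.20. Of 17 fatty acid synthesis genes 13 fell and 3 rose (at most 0.75), and the falls were led by Elovl6 (-1.50) and the desaturase Scd1 (-1.48). Against IR, 23 of the 25 sterol genes were lower and none higher, beside 28.1% and 28.9% of all genes.

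Lysosome and autophagy genes rose in 49 of 57 and fell in 5 (median 0.53, with 0.39 in -SG and 0.30 in IR). Sqstm1, the autophagy receptor p62 (chromosome 11, 50199366 to 50210827), had 6333, 6281 and 6234 normalized counts in Ctr and 22341, 22599 and 22317 in IR -SG, a log2 difference of 1.84 ± 0.04 (SE, limma adjusted p = 1.37e-15). It stood at 23222 ± 1491 in -SG and 9950 ± 194 in IR. Gpnmb rose by 2.07 and the progranulin gene Grn by 1.45. Higher in IR -SG than after each treatment alone were 18 of the 57, beside 10.0% of all genes. The protease gene Ctsl fell, from 17086 ± 65.9 to 14187 ± 435.

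NRF2, the transcription factor of the oxidant response encoded by Nfe2l2, rose by 0.31, and of 36 listed targets 21 rose and 8 fell (median 0.40). Nqo1, a quinone reductase, went from 252 ± 14 normalized counts to 693 ± 46.9 (log2 difference 1.46). Gsta4, a glutathione transferase of lipid aldehydes, went from 94.9 ± 0.824 to 715 ± 34.5 (2.90). Gsta1 was at 0 in every Ctr sample and at 38 ± 14.5 in IR -SG, and since Gsta1 and Gsta2 are near-identical their reads may be split between them. Leaving out genes with a mean under 100 kept 28 targets, of which 13 rose and 8 fell, with a median of 0.11. Of 28 antioxidant enzymes 14 fell and 9 rose, with Sod2, the mitochondrial superoxide dismutase, at -0.62.

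Keratin and desmosome genes rose in 20 of 25 and fell in 3 (median 1.05). Krt14, a basal keratin, went from 3286 ± 97.2 normalized counts in Ctr to 13445 ± 121 in IR -SG (log2 difference 2.03), with 16324 ± 1098 in -SG and 5022 ± 314 in IR. Krt16 rose by 3.67 and the corneodesmosin gene Cdsn by 3.84. Not every keratin rose. The lowest log2 difference of the 25 tested members, -2.49, belongs to neither Krt18 nor Krt5. Krt18 had 15043, 15311 and 15402 normalized counts in Ctr and 12122, 12080 and 11949 in IR -SG. Krt5, another basal keratin, was low and uneven, at 65.9, 2.13 and 36.1 in Ctr and at most 2.97 in IR -SG. Vim, the mesenchymal intermediate filament, went from 54312 ± 777 in Ctr to 24046 ± 1364 in IR -SG (log2 difference -1.18), close to its 23940 ± 1235 in -SG, and was at 56633 ± 1537 in IR.

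ERK output and feedback genes fell in 18 of 24 and rose in 4, with a median of -0.83, of -0.62 in -SG and of 0.04 in IR. Etv4, an ERK-induced transcription factor, went from 1741 ± 34.3 normalized counts to 581 ± 26.0 (log2 difference -1.58), and the ERK phosphatase gene Dusp6 from 2230 ± 55.7 to 898 ± 79.6 (-1.31). Rgs16, which speeds the shut-off of G proteins, had the largest fall by the ranking of all genes. Its 2640, 2683 and 2858 normalized counts in Ctr became 389, 329 and 345 in IR -SG, a log2 difference of -2.94 ± 0.06 (SE, limma adjusted p = 7.56e-16), beside -2.57 for -SG and -0.26 for IR against the same Ctr samples.

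Of 26 genes of matrix proteases, the plasminogen system and hyaluronan, 13 fell and 7 rose (median -0.16), with Has2, hyaluronan synthase, at -1.71, and Mmp3 at -1.50. The treatments alone lay on opposite sides of Ctr, with medians of -0.59 in -SG and 0.49 in IR. Adam8, a membrane protease, was one of the rises, from 799 ± 14 to 3325 ± 92.7 (log2 difference 2.06). Fibroblast markers summed to 207 to 415 in Ctr and 415 to 468 in IR -SG. Within that sum Pdgfra rose, from 179 to 202 in Ctr to 379 to 430.5 in IR -SG. The collagen markers and Dcn had lower means in IR -SG. Col1a1 had 37.4, 11.7 and 50.1 in Ctr and 14.8 to 18.9 in IR -SG. Col1a2 had 63.2, 7.44 and 49.3 in Ctr and 12.8 to 14.9 in IR -SG. Col3a1 had 90.8, 5.31 and 125 in Ctr, Dcn 14.2, 1.06 and 10.6, and both at most 1.98 in IR -SG. The part of fibroblast markers in this list was not tested.

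A total of 1168 genes were higher in IR -SG than in both -SG and IR (10.0%) and 1078 were lower than in both (9.24%). Among those higher than both, Prune2, a gene with a BCH domain, had 12.5, 11.7 and 5.28 normalized counts in Ctr, 57.2, 52.5 and 47.0 in -SG and 23.1, 30 and 23.9 in IR, set against 103, 108 and 109 in IR -SG. Phactr1, a regulator of actin and of protein phosphatase 1, and Vdr, the vitamin D receptor, had log2 differences of 2.77 and 2.45 from Ctr. Among those lower than both, Hirip3, a histone-binding protein, went from 2086 ± 37.6 in Ctr to 679 ± 29.4 in IR -SG (log2 difference -1.62), with 1108 ± 56.6 in -SG and 1206 ± 18.9 in IR. The somatic cytochrome c gene Cycs was at 429 ± 22.5 in Ctr and 219 ± 14.6 in IR -SG. These genes were picked so that the 3 IR -SG samples lay beyond every -SG and IR sample, so that separation is no separate result. The 3 IR -SG samples also lay beyond every Ctr sample on that side.

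Whether the combined treatment equalled the sum of its parts was asked gene by gene, as the log2 difference of IR -SG from Ctr less those of -SG and of IR. By that interaction test 490 genes exceeded the sum (4.20%) and 836 fell short of it (7.17%). The G2 and mitosis genes exceeded it in 30 of 55 and fell short in none, with a median departure of 0.21. Cdk1, the mitotic kinase, had a departure of 0.34 ± 0.05 (SE, limma adjusted p = 0.00028), from 6048 ± 37.5 normalized counts in Ctr, 5506 ± 229 in -SG and 5919 ± 71.4 in IR, set against 6806 ± 179 in IR -SG. Cenpf had a departure of 0.50, Ube2c of 0.42 and Cdc25b of 0.40. DNA replication genes exceeded the sum in 14 of 55, homologous recombination and Fanconi genes in 11 of 42, and sterol genes in 11 of 25, with none short of it in these lists. Exceeding the sum can be a smaller fall: the median of the sterol genes was -0.73 with both treatments, beside -0.83 for starvation and -0.24 for irradiation given alone.

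The -SG replicate 6 stood apart from the other -SG samples, with a chi-square per gene of 7.76 and 12.2 against them where those differed by 1.92, so these counts were also taken without it. Without -SG replicate 6, 37 of the 55 mitotic genes exceeded the sum and none fell short, and 25 were higher in IR -SG than in both -SG and IR while 2 were lower. Over the leave-one-out fits the number above the sum ran from 21, without Ctr replicate 3 or without IR replicate 2, to 37. The replication, recombination and sterol counts were lowest at 9 (without Ctr replicate 2), 7 (without Ctr replicate 1 or 2) and 7 (without Ctr replicate 2 or IR -SG replicate 4), and were 20, 14 and 14 without -SG replicate 6. For all genes, the number above the sum was 847 without -SG replicate 6 and 301, the lowest, without Ctr replicate 1.

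Several groups fell short of the sum. Interferon-stimulated genes did so in 16 of 44, lysosome and autophagy genes in 17 of 57, chemokines and cytokines in 13 of 26 and matrix genes in 11 of 26, and in the first 3 of these lists none exceeded it. Scara5, a ferritin receptor, had 18.2 ± 4.15 normalized counts in Ctr, 408 ± 40.7 in -SG and 117 ± 31.9 in IR, set against 668 ± 40 in IR -SG, a departure of -1.89 ± 0.24. Il1rl1, the interleukin-33 receptor, was raised by radiation alone, to 145, 156 and 152 from 12.5, 18.1 and 25.5, and was at 45.8, 37.7 and 38.4 in IR -SG. Il1a was at 111 ± 8.45 in Ctr, 332 ± 19.8 in IR and 151 ± 17.2 in IR -SG. The linker histone H1f2 had the most negative departure of the ranked genes, -2.50 ± 0.18 (limma adjusted p = 2.8e-07), with an IR level above and an IR -SG level below that of Ctr. The core histones that passed the filter fell short in all 4 cases, and in 2 of 4 without IR replicate 2 or IR -SG replicate 4.

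**Figure D5:**
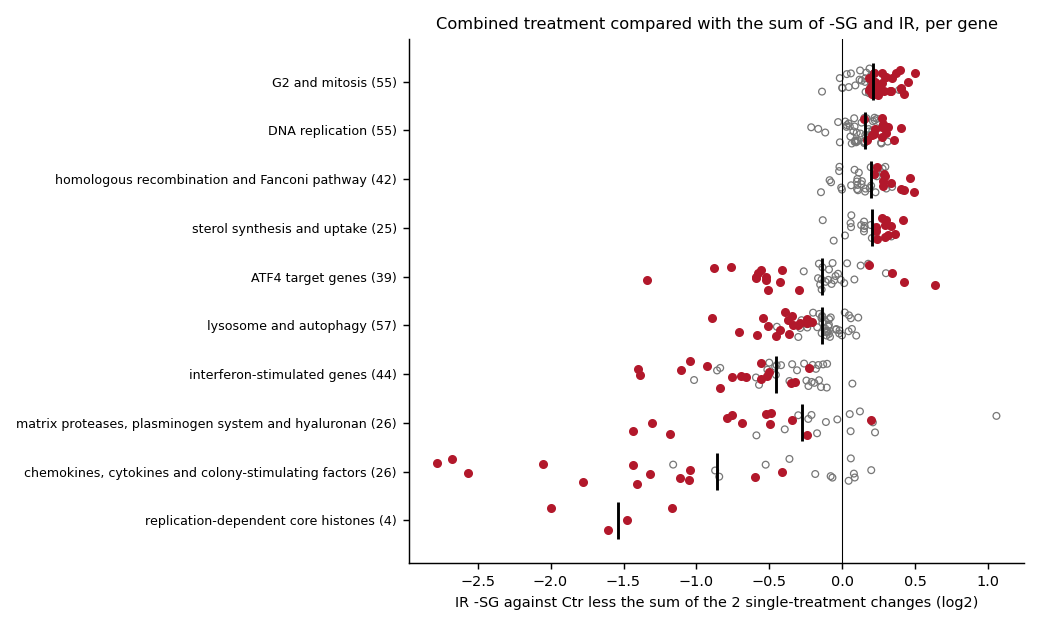
Departure of each gene in 10 lists from the sum of the log2 differences of -SG and IR (x axis, log2; filled points passed the threshold, open points did not; bars are list medians; number tested in parentheses). Mitotic genes lie to the right of 0 (30 of 55 past the threshold) and interferon, chemokine and core histone genes to the left (16 of 44, 13 of 26 and 4 of 4).

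Genes that are not protein-coding were fitted together with the coding genes. Of 2929 tested, 313 were higher in IR -SG than in Ctr (10.7%) and 712 lower (24.3%), and most of the lower ones were pseudogenes, 568 of 2029, whose reads can come from their parent genes. Of 724 long non-coding RNAs 162 were higher and 112 lower. AW112010, an interferon-inducible transcript, had 37.4, 31.9 and 26.4 normalized counts in Ctr and 122, 138 and 156 in IR -SG. Mir17hg, the host transcript of the miR-17 cluster, had 117, 124 and 128 in Ctr, 45.8, 43.6 and 42.3 in IR -SG, and lay between these in both -SG and IR.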

How the data were processed

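RNA of 12 4T1 cultures was sequenced from stranded, ribosomal RNA-depleted libraries. By the study's methods and the submitters' processing notes, HISAT2 and TopHat placed the reads on GRCm38, featureCounts gave counts per gene, and the authors scaled these with DESeq2 in R 3.3.1. The deposited values are this normalized signal, read counts divided by 1 size factor per sample, and 100% of values of each sample are whole reads after multiplication by that factor (tolerance 0.001), which gave the depths. A factor per sample assumes that most genes keep their level. The table's gene IDs were matched to GENCODE M21 for symbol, class and position (60 of 20587 unmatched). The strand setting is not given in the sources used here, so antisense and overlapping genes may share reads.

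Groups came from the labels. Log2(normalized count + 1) was fitted with limma 3.58.1 (R 4.3.3, intensity trend, 4 groups in 1 fit, 8 residual degrees of freedom) for protein-coding genes that reached 10 normalized counts in 3 or more samples, and p-values were adjusted by Benjamini-Hochberg over the 11663 genes at a threshold of 0.05. Errors are SD over 3 samples for levels and SE for log2 differences, which understate changes of low genes. The recovered reads were tested with edgeR 4.0.16 and DESeq2 1.42.0 as alternatives. Scripts were tested on simulated data. Gene lists were described by counts and medians, without set tests. Members and lists were chosen with earlier results of these data known. Named genes were, per list, up to 6 of the largest changes in the main direction and 3 in the other, plus the 15 largest each way over all genes and outside both single treatments and 10 each way for the departure, where ranks over all genes took those whose higher group averaged 100 or more and whose samples did not overlap. The TCA, serine, CDK inhibitor, NRF2 regulator and ATF4 regulator lists were open to naming whatever their values. Trp53, Ube2c and Cdk1 were added after their values were seen.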

Additional observations from a re-analysis of the deposited data

Results flagged for a closer look

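The genes below are flagged because the interaction test found that the effect of starvation differed with and without radiation (limma, adjusted over 11663 genes): 490 genes exceeded the sum of the log2 differences of -SG and IR and 836 fell short. The 10 that exceeded it most among genes with at least 100 normalized counts had departures of 0.70 (Ubb), 0.69 (Lpin1), 0.66 (Zbed6), 0.64 (Pycr1), 0.63 (Pgghg), 0.59 (Rbmx), 0.57 (Rtl10), 0.56 (Kif24), 0.55 (Nsun6) and 0.55 (Dennd4b). In Lpin1 and Rbmx the IR -SG level was below that of Ctr, so a positive departure there means a smaller fall than the sum. The samples of Ubb, a polyubiquitin gene, overlapped between Ctr and IR -SG.

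The 10 that fell short most had departures of -2.50 (H1f2), -2.28 (Serpinb9b), -2.05 (Il1rl1), -1.96 (Mab21l4), -1.89 (Scara5), -1.80 (Plekhs1), -1.78 (Dsg3), -1.78 (Il1a), -1.77 (Siglecg) and -1.70 (Slc24a3). Serpinb9b, Mab21l4, Scara5 and Slc24a3 were higher than Ctr in all 3 treated groups, whereas Il1rl1, Plekhs1 and Siglecg were highest in IR. Dsg3 was at 2.78 ± 2.30 normalized counts in Ctr, so its departure depends on the pseudocount.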

How the results depend on the processing

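For IR -SG against Ctr the call count was 7766 (DESeq2) to 8195 (edgeR) with the other tools and 7599 to 8666 in the leave-one-out fits, beside 8126. The share of calls that were higher was 53.3%, against 58.9% with samples scaled to the same total and 46.9% with quantile normalization. No named gene reversed under any alternative run. Of 484 named values, quantile normalization lost 21 calls and leaving out a replicate at most 14. A change of at least 2-fold left 939 higher and 225 lower (against Ctr), 225 and 16 (against -SG), 189 and 324 (against IR), 0 and 161 (departure), 8 above and 6 below both treatments, and 132 and 117 non-coding genes. Non-coding genes higher were 490 with no filter, and 88 higher and 346 lower with a mean of at least 100. The 490 genes above the sum ranged from 301 (without Ctr replicate 1) to 847 (without -SG replicate 6).

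Ctr and IR are numbered 1 to 3 and -SG and IR -SG 4 to 6, so no replicate block could be fitted against Ctr or IR. Where it could, same-numbered samples deviated with correlations of -0.09 to 0.07 and share only a number. With the replicate block, 2600 genes were higher and 2037 lower than in -SG, and 333 exceeded and 652 fell short of the sum, with 22 in place of 30 mitotic genes above it. The cause was not tested.

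Depth limits the low genes: at 3 samples a group and under 30 normalized counts, as for Fgf21 or Nos2 in Ctr, folds rest on few reads.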

Other observations

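Other groups of genes are given here as values for IR -SG against Ctr, beside 37.2% of all genes higher and 32.5% lower. Of 16 plasma membrane amino acid transporters 9 rose and 3 fell, with Slc43a2, a carrier of large neutral amino acids, at 123 ± 13.2 normalized counts in Ctr and 727 ± 12 in IR -SG (log2 difference 2.56). Of 21 cytosolic aminoacyl-tRNA synthetases 10 rose and 8 fell, led by Aars (0.59) and Vars (-0.63). Of 16 mitochondrial chaperones and proteases 10 fell, including Hspd1, the chaperonin HSP60 (-0.91), and 1, the protease gene Lonp1 (0.68), rose. Among the 12 NRF2 regulators 8 rose and 2 fell, with Nfe2l1 at 0.84 and Maff at -1.12. Of 24 glycolysis genes 11 fell and 7 rose, with the hexokinase Hk2 at -1.03 and Txnip, which restrains glucose uptake, at 2.04.

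Of 17 Notch pathway genes 7 rose and 4 fell, and the ligands went apart. Dll1 went from 257 ± 12.2 to 825 ± 40 normalized counts (log2 difference 1.68) and Dll4 from 225 ± 20.2 to 70.6 ± 6.96 (-1.66), while the target Nrarp fell by 1.98. Of 21 iron genes 9 rose and 7 fell, with the iron exporter gene Slc40a1, at 45.3 ± 0.89 in Ctr and 188 ± 11.4 in IR -SG, rising by 2.03. Of 7 complement genes 4 rose by limma (2 to 5 under the alternatives) and the lowest log2 difference of the 7 was 0.11. C3 went from 267 ± 0.725 to 1333 ± 31 normalized counts, below its 1751 ± 132 in IR. The medians of the Notch and iron lists, 0.27 and 0.20, turned to -0.07 and -0.00 with quantile normalization.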
